A study of Mus musculus with 7 samples.

Results

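The 8 genes described here encode the core of the angiotensin and endothelin systems of the mouse heart: Agt, Ace, Agtr1a and Agtr2 on the angiotensin side, and Edn1, Ece1, Ednra and Ednrb on the endothelin side. They were taken by gene symbol from a table of 53460 genes, by a rule that uses no measured value, and each of the 8 symbols matched 1 entry. The samples were hearts of male wild-type C57BL/6Ncr mice (C57BL/6NCrSlc in the study's methods) that had all undergone TAC, transverse aortic constriction, in which a band on the aortic arch makes the left ventricle pump against a raised pressure. In the TAC+EMPA group (n = 4 mice), chow carried empagliflozin, a drug that blocks renal glucose uptake through SGLT2, for 5 days from 2 weeks after TAC. The TAC group (n = 3 mice) had the operation without the drug. GEO's labels put TAC at 12 weeks of age and sampling at 14 weeks, whereas the study's methods name a younger age at surgery. A group without TAC was not analysed here, so no value below says what TAC itself did to these genes. Expression was measured by RNA sequencing as FPKM, in which the fragments of a gene are scaled by its transcript length and by the size of the library.

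The renin-angiotensin system starts with angiotensinogen, the protein encoded by Agt, which renin cuts to angiotensin I. Angiotensin-converting enzyme, encoded by Ace and anchored mainly on endothelial cells, turns it into angiotensin II, which acts on the type 1 receptor (Agtr1a in most mouse tissues) and the type 2 receptor (Agtr2). The endothelin system has the same layout, with the precursor of endothelin-1 encoded by Edn1, the converting enzyme by Ece1, and receptors of type A (Ednra) and type B (Ednrb). Ednra is best known on smooth muscle and cardiomyocytes, where it drives contraction and growth, and Ednrb on endothelial cells, where it drives nitric oxide release and clears endothelin-1 from the blood. The type 1 angiotensin receptor and both endothelin receptors signal through Gq proteins.

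The 10 cardiomyocyte genes that check the labelled tissue summed to 64572 to 72479 FPKM in TAC+EMPA and 67676 to 81630 FPKM in TAC. One of them, Myh6, which encodes the motor protein of adult mouse cardiomyocytes, was nevertheless listed at 0 in TAC+EMPA replicate 1, against 4498 to 5098 FPKM in the other TAC+EMPA hearts and 4213 to 8589 FPKM in TAC. A listed 0 in this table is therefore not read as absence of a transcript. Some libraries also stood apart from the rest of their group. TAC replicate 3 lay with the TAC+EMPA libraries on the first principal component of all genes tested, which held 46.8% of the variance, at 16.1 against 18.9 to 24.3 for TAC+EMPA and -45.7 and -56.0 for TAC replicates 1 and 2. Library weights estimated by limma gave it 0.121, where equal weighting would give 1. TAC+EMPA replicate 4 held markers of other tissues, with the liver gene Alb at 26.1 FPKM against 0.121 to 0.409 FPKM in the other TAC+EMPA libraries, and 8 hepatocyte markers summed to 120 FPKM in it. The skeletal muscle gene Tnnt3 was at 69.2 FPKM in it, against 0.428 to 2.80 FPKM in the other TAC+EMPA libraries and 0.334 to 0.938 FPKM in TAC. Alb was also at 2.01 and 3.62 FPKM in TAC replicates 1 and 2. Relative sequencing depth, read from the smallest steps of the FPKM values, ranged from 1.19 to 2.24 in TAC+EMPA and from 1 to 2.22 in TAC. The comparison of each of the 8 genes that could be tested is therefore also given without TAC replicate 3, and the values without TAC+EMPA replicate 4, which moved no gene across the threshold, are given for the genes that it shifted most.

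Across all 7 libraries, Ednra was the 1 gene of the 8 whose 2 groups did not overlap, with higher values in every TAC+EMPA heart, and Agtr1a was higher in TAC+EMPA than in TAC replicates 1 and 2. Ednrb and Ace leaned the other way, lower in TAC+EMPA than in those same 2 TAC hearts. Agt, Edn1 and Ece1 showed no difference beyond the spread between hearts, and Agtr2 was too low to judge. None of the 7 genes tested passed an adjusted p of 0.05 by limma with Benjamini-Hochberg adjustment, and 0% of the 12391 genes tested did so in either direction. At an unadjusted p under 0.05, 1 of the 7 was higher, against 19% of all genes tested, and 0 were lower, against 14.7%. Groups without overlap were found for 1 of the 7 in the higher direction, beside 11.5% of all genes, and for 0 in the lower direction, beside 10.7%. The median log2 difference over the 7 was 0.08, and 0.03 over all genes tested.

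The reading changed with 1 library. Without TAC replicate 3, 2 of the 7 were higher at the same threshold (Agtr1a and Ednra), where 29.7% of all genes were, and 2 were lower (Ace and Ednrb), where 23.7% were. With all 7 libraries kept, each was also weighted by its scatter around its own group. The same 4 genes passed in the same directions, beside 26.7% of all genes higher and 20.6% lower. These weights came from the same values and gave TAC replicate 3 only 0.121. This fit was therefore close to leaving that library out and is not separate support. Set against TAC replicate 3 alone, the 4 TAC+EMPA hearts differed by -0.12 for Agtr1a, 0.02 for Ace and -0.02 for Ednrb on the log2 scale, while Ednra was still 0.33 higher. The differences of Agtr1a, Ace and Ednrb thus rested on TAC replicates 1 and 2, and that of Ednra was seen against all 3 TAC hearts.

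**Figure D1:**
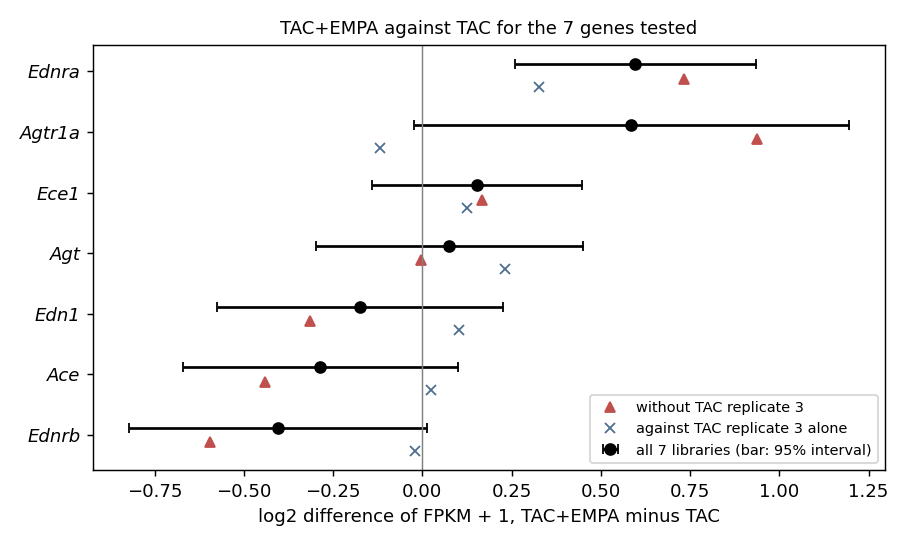
Log2 difference of FPKM + 1 between TAC+EMPA and TAC hearts for the 7 genes tested, with genes down the page. Black points with bars are the limma estimate and 95% interval over all 7 libraries, red triangles leave out TAC replicate 3 and blue crosses compare TAC+EMPA with TAC replicate 3 alone. Only the interval of Ednra (0.26 to 0.93) lies wholly on 1 side of 0, and the crosses of Agtr1a, Ace and Ednrb lie close to 0.

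Promoters are shown for Ednra, Ednrb and Ace, which are 3 of the 4 genes that passed the threshold without TAC replicate 3 and so the ones the comparison turns on. The fourth was Agtr1a. RefSeq windows of GRCm38.p6, with 250 bases before and 50 after the annotated start, matched 7 of the 8 genes, all but Agtr1a, in 11 entries. Ednra lies at chr8:77724403-77724702 on the minus strand, Ednrb at chr14:103843652-103843951 on the minus strand and Ace, at its upstream start, at chr11:105967698-105967997 on the plus strand. The Ednrb window lies wholly inside the outermost GENCODE transcript of the gene, whose start is further upstream. Capitals mark matches, on either strand, to any of 5 motifs: the TATA box with the letters TATAAA, the GATA motif with the letters AGATAA, 2 forms of the AP-1 motif with the letters TGACTCA or TGACTAA, and the GC box with the letters GGGCGG.
Ednra: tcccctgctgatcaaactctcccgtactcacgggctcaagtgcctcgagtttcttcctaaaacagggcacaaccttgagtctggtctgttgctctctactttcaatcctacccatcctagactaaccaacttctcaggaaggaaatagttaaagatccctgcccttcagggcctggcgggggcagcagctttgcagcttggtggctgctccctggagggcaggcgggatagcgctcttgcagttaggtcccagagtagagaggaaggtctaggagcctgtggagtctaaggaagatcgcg
Ednrb: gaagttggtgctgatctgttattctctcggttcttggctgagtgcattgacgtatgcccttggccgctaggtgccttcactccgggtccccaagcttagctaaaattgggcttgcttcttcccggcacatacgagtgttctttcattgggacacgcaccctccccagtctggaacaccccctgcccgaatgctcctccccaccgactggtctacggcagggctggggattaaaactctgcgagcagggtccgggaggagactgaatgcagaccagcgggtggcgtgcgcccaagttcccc
Ace: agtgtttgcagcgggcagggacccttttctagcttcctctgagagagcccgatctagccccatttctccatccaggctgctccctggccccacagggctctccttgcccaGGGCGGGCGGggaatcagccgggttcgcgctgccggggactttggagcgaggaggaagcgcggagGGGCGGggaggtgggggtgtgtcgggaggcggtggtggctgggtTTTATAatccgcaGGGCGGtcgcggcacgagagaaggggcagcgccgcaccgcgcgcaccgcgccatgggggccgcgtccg

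Neither endothelin receptor window held any of the 5 motifs, so both are printed wholly in lower case. The Ace window held 4 GC boxes, 2 of them overlapping, and 1 TATA box read on the opposite strand. Among the others, the window of Agt held 1 TATA box, that of Edn1 held 1 GATA motif and 1 AP-1 motif of the form TGACTAA, and 3 of the 4 windows of Ece1 held 1 or 2 GC boxes. The window of Agtr2 and that of the downstream start of Ace held none. Of all 32851 RefSeq promoter windows, 13.6% held the TATA box, 11.2% the GATA motif, 5.2% and 2.35% the AP-1 forms TGACTCA and TGACTAA, and 35.7% the GC box. These are matches of letters, and no binding was measured.

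Per length, the converting enzymes were the most abundant of the 8 transcripts and the peptide precursors the least abundant of the 7 that could be judged. In the mean FPKM of TAC+EMPA hearts the order was Ece1, Ace, Agtr1a, Ednra, Ednrb, Agt and Edn1. Neighbours in this order kept their places in all 7 hearts for Ace over Agtr1a, Agtr1a over Ednra, and Ednrb over Agt. Ece1 was above Ace in 3 of 4 TAC+EMPA hearts and in 1 of 3 TAC hearts, and Agt was above Edn1 in 6 of 7, so these neighbours did not differ beyond their spread. Ednra was above Ednrb in 4 of 4 TAC+EMPA hearts and in 1 of 3 TAC hearts. The precision behind the levels follows from the fragments, estimated from depth and the longest annotated transcript, which ran from 55.2 to 181 per library for Edn1 and from 68.8 to 240 for Agt, but from 3184 to 8763 for Ace and from 2854 to 7292 for Ece1.

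**Figure D2:**
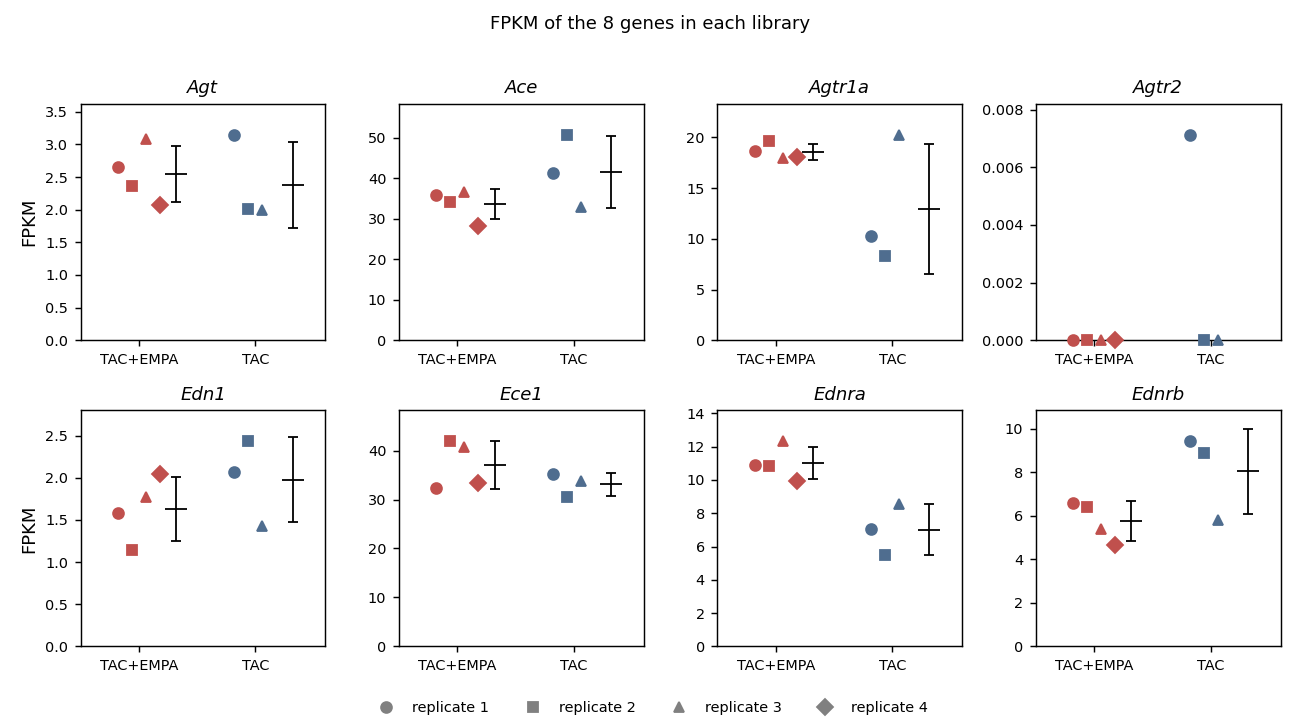
FPKM of each of the 8 genes in every library, with TAC+EMPA (red, n = 4) left of TAC (blue, n = 3), marker shapes for the replicate numbers, and black bars for the mean and SD where the gene was above the filter. Each panel has its own axis from 0. In the panels of Agtr1a, Ace and Ednrb the TAC triangle (replicate 3) lies near the TAC+EMPA points and away from the other TAC points, while in the panel of Ednra all 4 TAC+EMPA points (9.96 to 12.3 FPKM) lie above all 3 TAC points (5.47 to 8.56 FPKM).

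Agt (ENSMUSG00000031980, chromosome 8, 124556534 to 124569706, minus strand, 5 exons), the substrate of the whole angiotensin cascade, was measured at 2.66, 2.36, 3.08 and 2.07 FPKM in TAC+EMPA replicates 1 to 4, against 3.15, 2.01 and 2.00 FPKM in TAC replicates 1 to 3. The groups overlapped, and TAC replicate 1 was the highest heart of all. The means were 2.54 ± 0.432 FPKM in TAC+EMPA and 2.38 ± 0.659 FPKM in TAC (SD, n = 4 and 3). The log2 difference was 0.08 (95% interval -0.30 to 0.45, adjusted p = 0.741 by limma), and it was -0.0027 without TAC replicate 3 and 0.14 without TAC+EMPA replicate 4. Agt is made chiefly by hepatocytes, whose 8 markers summed to 120 FPKM in TAC+EMPA replicate 4, where Agt was the lowest of its group. The part of liver RNA in the Agt values was not tested.

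Ace (ENSMUSG00000020681, chromosome 11, 105967945 to 105989964, plus strand), the enzyme that makes angiotensin II and degrades bradykinin, had 35.8, 34.1, 36.6 and 28.2 FPKM in TAC+EMPA hearts, against 41.4, 50.7 and 32.9 FPKM in TAC hearts. TAC replicates 1 and 2 were above every TAC+EMPA heart, and TAC replicate 3 lay inside the TAC+EMPA range. The means were 33.7 ± 3.82 FPKM in TAC+EMPA and 41.7 ± 8.90 FPKM in TAC, a log2 difference of -0.29 (SE 0.17, adjusted p = 0.242 by limma). Without TAC replicate 3 the difference was -0.44, with an adjusted p of 0.0301, and without TAC+EMPA replicate 4 it was -0.20 (adjusted p = 0.411). The exact two-sided permutation test over all 35 ways to divide the 7 libraries gave p = 0.229.

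Because Ace is mainly an endothelial enzyme, its values are set beside the endothelial cells of each heart. The 12 endothelial markers were all measured, and their sum was 395 to 413 FPKM in TAC+EMPA, against 756, 903 and 415 FPKM in TAC replicates 1, 2 and 3. The same libraries that were high for Ace in the TAC group were thus high for endothelial markers. Per 100 FPKM of these markers, Ace stood at 8.98, 8.63, 8.99 and 6.82 FPKM in TAC+EMPA and at 5.48, 5.62 and 7.94 FPKM in TAC, so the markers were lower in TAC+EMPA by more than Ace was. In bulk tissue, fewer cells of a type and less RNA per cell cannot be told apart. The part of endothelial content in the Ace values was not tested.

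**Figure D3:**
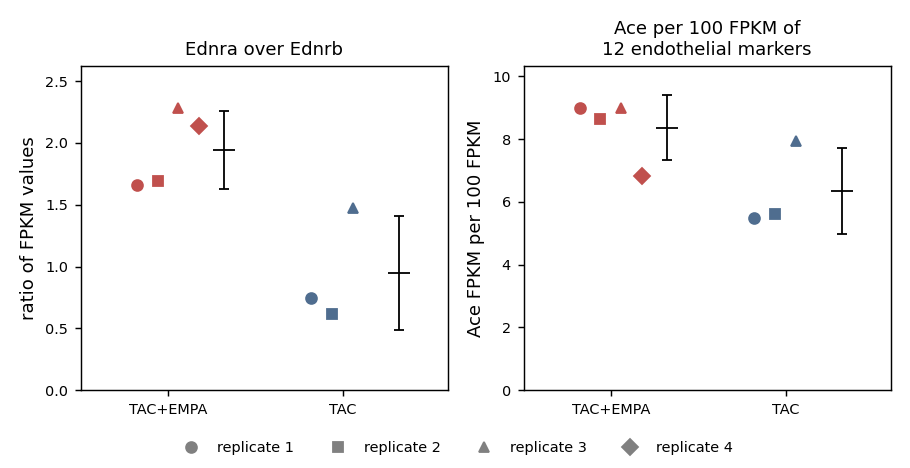
Left, Ednra FPKM divided by Ednrb FPKM in each heart, and right, Ace FPKM per 100 FPKM of 12 summed endothelial markers, with TAC+EMPA (red, n = 4) left of TAC (blue, n = 3) and black bars for the mean and SD. The receptor ratio is 1.66 to 2.28 in TAC+EMPA and 0.616 to 1.47 in TAC, and the Ace ratio is 6.82 to 8.99 in TAC+EMPA and 5.48 to 7.94 in TAC.

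Agtr1a (ENSMUSG00000049115, chromosome 13, 30336441 to 30382867, plus strand) encodes the receptor through which angiotensin II constricts vessels and promotes hypertrophy. It had 18.7, 19.7, 17.9 and 18.1 FPKM in TAC+EMPA hearts, against 10.3, 8.26 and 20.3 FPKM in TAC hearts. The TAC+EMPA hearts were tightly grouped, whereas the TAC group spanned both the lowest and the highest of the 7 values. The means were 18.6 ± 0.799 FPKM in TAC+EMPA and 12.9 ± 6.42 FPKM in TAC, a log2 difference of 0.59 (95% interval -0.02 to 1.2, adjusted p = 0.158 by limma, exact permutation p = 0.143). Without TAC replicate 3 the log2 difference was 0.94, with an adjusted p of 0.000541. Agtr1a has 6 annotated transcripts of 436 to 2199 bases, so its FPKM depends on how fragments were shared among them.

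Agtr2 (ENSMUSG00000068122, chromosome X, 21484544 to 21489164, plus strand), the receptor whose actions mostly oppose those of the type 1 receptor, was listed at 0 in all 4 TAC+EMPA hearts and in TAC replicates 2 and 3. TAC replicate 1 had 0.00712 FPKM, which at its depth is the value of about 1 fragment (0.988). The gene was under the filter of a mean of 1 FPKM, was not tested and is too low to judge in these libraries, where a listed 0 may also be a failed estimate. The second type 1 receptor gene of rodents, Agtr1b, was listed at 0 in all 7 libraries.

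On the endothelin side, Edn1 (ENSMUSG00000021367, chromosome 13, 42301476 to 42307990, plus strand, 5 exons), the precursor of endothelin-1, was the least abundant gene that could be tested. Its values were 1.58, 1.14, 1.77 and 2.04 FPKM in TAC+EMPA hearts, against 2.07, 2.43 and 1.43 FPKM in TAC hearts. The groups overlapped, with TAC replicate 3 below 3 of the 4 TAC+EMPA hearts. The log2 difference was -0.17 (95% interval -0.57 to 0.23, adjusted p = 0.470 by limma), and -0.31 without TAC replicate 3 (adjusted p = 0.140). It was closer to 0 without TAC replicate 2 (-0.065) or TAC+EMPA replicate 2 (-0.079), and -0.25 without TAC+EMPA replicate 4. Per 100 FPKM of endothelial markers, Edn1 stood at 0.289 to 0.494 FPKM in TAC+EMPA and at 0.270 to 0.345 FPKM in TAC.

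Ece1 (ENSMUSG00000057530, chromosome 4, 137862237 to 137965229, plus strand), which cuts big endothelin to endothelin-1, had 32.4, 41.9, 40.8 and 33.4 FPKM in TAC+EMPA hearts, against 35.1, 30.6 and 33.7 FPKM in TAC hearts. TAC+EMPA replicates 2 and 3 were above every TAC heart, and replicates 1 and 4 were inside the TAC range. The means were 37.1 ± 4.90 FPKM in TAC+EMPA and 33.1 ± 2.34 FPKM in TAC, a log2 difference of 0.15 (95% interval -0.14 to 0.45, adjusted p = 0.393 by limma). TAC replicate 3 had little effect on it, since the difference was 0.17 without that library. Without TAC+EMPA replicate 4 the difference was 0.20 (adjusted p = 0.336 by limma). The transcript is known in endothelial and other cells, and per 100 FPKM of endothelial markers it stood at 8.09 to 10.6 FPKM in TAC+EMPA and at 3.39 to 8.12 FPKM in TAC.

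Ednra (ENSMUSG00000031616, chromosome 8, 77663031 to 77724464, minus strand, 8 exons), the type A receptor, had 10.9, 10.8, 12.3 and 9.96 FPKM in TAC+EMPA hearts, against 7.04, 5.47 and 8.56 FPKM in TAC hearts. Every TAC+EMPA heart was above every TAC heart, and the highest TAC heart was again replicate 3. The means were 11.0 ± 0.978 FPKM in TAC+EMPA and 7.02 ± 1.54 FPKM in TAC. The log2 difference was 0.60 (SE 0.14, 95% interval 0.26 to 0.93), with an unadjusted p of 0.00389 and an adjusted p of 0.115 by limma. The exact permutation p was 0.0286, the smallest that 35 divisions can give. Without TAC replicate 3 the difference was 0.73 (adjusted p = 0.00275), and without TAC+EMPA replicate 4 it was 0.64 (adjusted p = 0.183). A gene on the opposite strand, 4933431K23Rik, overlaps Ednra and had 1.02 to 1.42 FPKM in TAC+EMPA and 0.610 to 1.07 FPKM in TAC, and whether fragments were assigned by strand is not given in the sources used here.

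Ednrb (ENSMUSG00000022122, chromosome 14, 103814625 to 103844402, minus strand, 8 exons), the type B receptor, had 6.58, 6.40, 5.40 and 4.67 FPKM in TAC+EMPA hearts, against 9.43, 8.89 and 5.81 FPKM in TAC hearts. TAC replicates 1 and 2 were above all TAC+EMPA hearts, and TAC replicate 3 was in their midst. The means were 5.76 ± 0.898 FPKM in TAC+EMPA and 8.04 ± 1.95 FPKM in TAC, a log2 difference of -0.40 (95% interval -0.82 to 0.01, adjusted p = 0.156 by limma, exact permutation p = 0.143). It was -0.60 without TAC replicate 3, with an adjusted p of 0.00971, and -0.32 without TAC+EMPA replicate 4 (adjusted p = 0.274). Per 100 FPKM of endothelial markers, Ednrb stood at 1.65, 1.62, 1.33 and 1.13 FPKM in TAC+EMPA and at 1.25, 0.985 and 1.40 FPKM in TAC, so the lower level in TAC+EMPA hearts was not seen on that scale.

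The balance of the receptors within a heart was examined after these values had been seen and is given without a test. The ratio of Ednra to Ednrb FPKM was 1.66, 1.69, 2.28 and 2.13 in TAC+EMPA hearts, against 0.747, 0.616 and 1.47 in TAC hearts. In the TAC+EMPA hearts the type A transcript was always the more abundant, and in TAC replicates 1 and 2 the type B transcript was. Ednrb made up 30.5% to 37.6% of the summed FPKM of both receptors in TAC+EMPA and 40.4% to 61.9% in TAC.

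Over the 7 libraries, the log2 levels of the members fell into opposing directions. Agtr1a correlated with Ednra (r = 0.88) and Ace with Ednrb (r = 0.87), while Agtr1a ran against Ace (r = -0.86) and Ednrb (r = -0.84). These are descriptions over 7 libraries that share 2 groups, depth and the position of TAC replicate 3. The genes most like each member by the same measure were Mid1ip1 and Acsl6 for Agtr1a (r = 0.999 each), Ttn, Gosr1 and Rnf166 for Ednra (0.988 to 0.992), Dad1, Timp1 and Lgals1 for Ednrb (0.988 to 0.990), and Ncoa3, 8430408G22Rik and Ctsk for Ace (0.990 to 0.991). Snx21 was nearest to Edn1 (0.991), Sugp1 to Ece1 (0.978) and Fkbpl to Agt (0.978).

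Markers of the cells that carry these genes moved with the groups to different degrees. All 12 endothelial markers had a lower fitted value in TAC+EMPA, 9 of them at an unadjusted p under 0.05 and 0 at the adjusted threshold, with a median log2 difference of -0.65, which was -0.94 without TAC replicate 3 and -0.08 against that library alone. Over all genes tested, 14.7% were lower at that unadjusted p. All 12 passed lower without TAC replicate 3, beside 23.7% of all genes. Over all 7 libraries, 6 were lower without overlap, beside 10.7% of all genes. Among these endothelial markers, Cdh5, the cadherin of endothelial junctions, stood at 51.2 to 60.3 FPKM in TAC+EMPA and 65.1 to 116 FPKM in TAC. Of the 10 fibroblast markers, 5 were lower at an unadjusted p under 0.05, beside 14.7% of all genes, and 0 passed the adjusted threshold (median -0.31). Without TAC replicate 3, 4 of them passed lower, beside 23.7% of all genes. The 10 pericyte and smooth muscle markers, the cells best known for Ednra and Agtr1a, summed to 126 to 224 FPKM in TAC+EMPA and 130 to 196 FPKM in TAC, with a median of -0.09 (-0.27 without TAC replicate 3 and -0.24 without TAC+EMPA replicate 4). The upper end in TAC+EMPA was replicate 4 alone, since the others stood at 126 to 147 FPKM, and Acta2 was at 75.0 FPKM in it, against 26.2 to 33.2 FPKM in those. The upper end in TAC was likewise replicate 1 alone, at 196 FPKM against 130 and 139 FPKM in replicates 2 and 3. Acta2 was at 66.7 FPKM in TAC replicate 1, against 39.0 and 34.2 FPKM in TAC replicates 2 and 3. The channel genes on this list went opposite ways, Abcc9 by 0.77 and Kcnj8 by -0.33 on the log2 scale (adjusted p = 0.117 and 0.115 by limma). Against TAC replicate 3 alone, Abcc9 differed by 0.07 and Kcnj8 by -0.30. Which cells of the heart gave these transcripts was not tested. Of the 10 cardiomyocyte markers, an unadjusted p below 0.05 was reached by 4 in the higher and 0 in the lower direction. Over all genes, 19% and 14.7% did so. At the adjusted threshold 0 passed, while 5 passed higher and 1 lower without TAC replicate 3, beside 29.7% and 23.7% of all genes. By sign, 6 of these 10 were higher and 4 lower, with a median log2 difference of 0.17. Groups without overlap were found for 2 in the higher and 0 in the lower direction, beside 11.5% and 10.7% of all genes. Like Ednra, the calcium release channel gene Ryr2 (102 to 117 FPKM in TAC+EMPA and 23.7 to 82.2 FPKM in TAC) and the titin gene Ttn (39.1 to 47.1 FPKM in TAC+EMPA and 24.0 to 33.2 FPKM in TAC) had groups without overlap, with log2 differences of 1.53 and 0.57 (adjusted p = 0.115 each by limma). The part of these cells in the receptor values was not tested.

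The other genes of the angiotensin system were few and mostly enzymes. Of 20 listed, 19 were in the table and 10 passed the filter, none of which passed the adjusted threshold, while an unadjusted p under 0.05 was reached by 3 in the higher and 2 in the lower direction (median log2 difference 0.27). Over all genes tested, 19% were higher and 14.7% lower at that unadjusted p. Leaving out TAC replicate 3, 6 of the 10 passed higher and 2 passed lower, beside 29.7% and 23.7% of all genes. Renin itself, as Ren1, was listed at 0 in all 7 libraries. The receptor-bound protein Agtrap, which promotes internalisation of the type 1 receptor, had 13.3 to 18.5 FPKM in TAC+EMPA and 9.94 to 12.6 FPKM in TAC, without overlap (log2 difference 0.43, adjusted p = 0.116 by limma).

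Among the peptidases, Lnpep, which binds angiotensin IV, had 11.6, 11.6, 15.1 and 13.6 FPKM in TAC+EMPA hearts, against 3.38, 3.78 and 10.9 FPKM in TAC hearts (log2 difference 1.14, adjusted p = 0.115 by limma). TAC replicate 3 lay close to the TAC+EMPA range here as well. Prcp, a carboxypeptidase that turns angiotensin II into angiotensin 1-7, had 6.82, 5.99, 5.15 and 5.97 FPKM in TAC+EMPA, against 8.97, 9.90 and 8.88 FPKM in TAC (log2 difference -0.56, adjusted p = 0.115). In contrast to Lnpep, its 3 TAC hearts were alike. Anpep, the aminopeptidase that trims angiotensin III, differed by -0.73 on the log2 scale (adjusted p = 0.117) and by -0.08 against TAC replicate 3 alone.

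Of the other endothelin genes, 3 passed the filter and 0 passed the adjusted threshold, although all 3 had groups without overlap and an unadjusted p under 0.05. Over all genes tested, 11.5% were higher and 10.7% lower without overlap, and 19% and 14.7% reached that unadjusted p. All 3 endothelin genes passed without TAC replicate 3, 2 of them higher and 1 lower, beside 29.7% and 23.7% of all genes. Edn3, the third endothelin, which prefers the type B receptor, had 5.79, 4.83, 5.85 and 6.77 FPKM in TAC+EMPA hearts, against 3.22, 2.44 and 4.25 FPKM in TAC hearts (log2 difference 0.68, adjusted p = 0.115 by limma). Its level was above that of Edn1 in every heart, though only just in TAC replicate 2 (2.44 against 2.43 FPKM). Furin, a protease that cuts proendothelin ahead of Ece1, had 44.5, 47.3, 54.5 and 35.9 FPKM in TAC+EMPA, against 16.5, 19.5 and 34.5 FPKM in TAC (log2 difference 0.98, adjusted p = 0.115). Pcsk6, a protease of the same family, had 17.7, 18.2, 19.3 and 15.6 FPKM in TAC+EMPA, against 23.2, 22.9 and 22.8 FPKM in TAC (log2 difference -0.36, adjusted p = 0.115). Edn2 and both entries of Ece2 were below 1 FPKM in every library, and Kel was listed at 0.

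**Figure D4:**
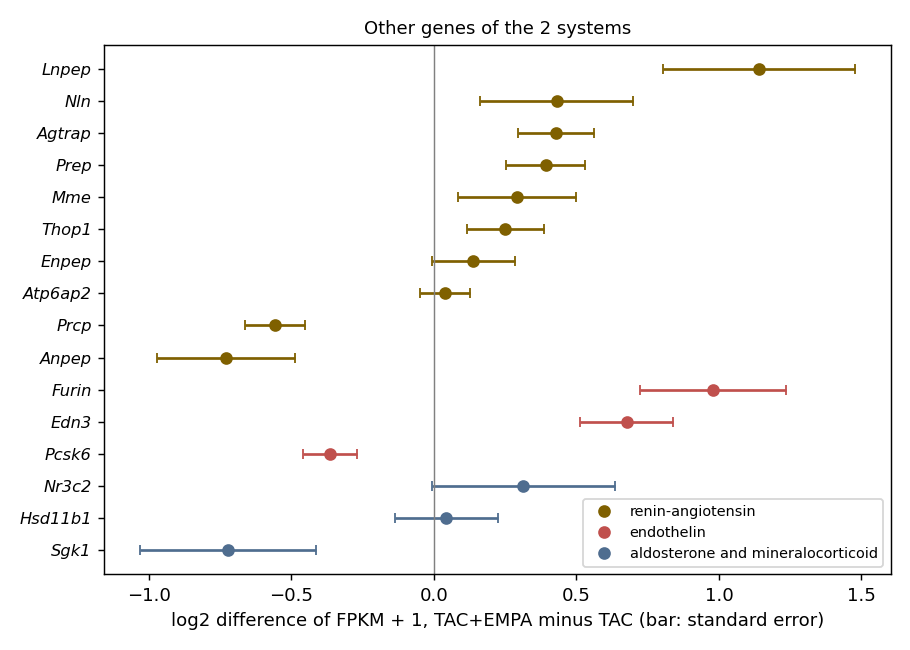
Log2 difference of FPKM + 1 between TAC+EMPA and TAC hearts over all 7 libraries for the 16 other tested genes of the angiotensin, endothelin and aldosterone lists, with standard errors as bars and genes down the page. Values run from -0.73 for Anpep to 1.14 for Lnpep, and no gene shown passed the adjusted threshold.

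Downstream, the adrenal steroid genes Cyp11b1 and Cyp11b2, the second of which encodes aldosterone synthase, were listed at 0 in all libraries. Nr3c2, the mineralocorticoid receptor, differed by 0.31 on the log2 scale (adjusted p = 0.489 by limma), and its target Sgk1 by -0.72 (adjusted p = 0.148). Both rested on TAC replicates 1 and 2, since leaving out TAC replicate 3 gave 0.71 for Nr3c2 (adjusted p = 0.0201) and -1.05 for Sgk1 (adjusted p = 0.0123), while the differences against that library alone were -0.49 and -0.07. All 24 Gq signaling genes and receptor regulators on the list were tested, 6 of them higher and 2 lower below an unadjusted p of 0.05, 0 past the adjusted threshold and a median of -0.07. Over all genes tested, 19% were higher and 14.7% lower at that unadjusted p. In the fit without TAC replicate 3, 7 of the 24 passed higher and 8 lower, beside 29.7% and 23.7% of all genes. The leading genes of this list were Rgs2, which shortens Gq signals, at 0.83, the protein kinase gene Rock2 at 0.69 and the guanine nucleotide exchange factor Arhgef1 at -0.61 (adjusted p = 0.117, 0.115 and 0.115 by limma). Of 14 genes known to be induced by angiotensin II or endothelin in heart, 12 were tested and 0 passed the adjusted threshold, with 1 in each direction below an unadjusted p of 0.05. The lower one was Tgfb1, which promotes fibrosis and differed by -0.48 (adjusted p = 0.131 by limma).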

How the data were processed

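RNA sequencing of 7 hearts was used (TAC+EMPA, 4 libraries, and TAC, 3 libraries). Per the labels and the study's methods, the authors made stranded mRNA libraries, aligned reads with TopHat2 2.0.13 (GRCm38). The deposited FPKM of each gene in each library came from Cuffdiff in Cufflinks 2.2.1, whose scaling between libraries is not given in the sources used here. FPKM is corrected for length and library size, so it gives shares of a library and not amounts of RNA. Columns of group averages, fold changes, p-values and q-values of the authors' test, and tables of enriched terms, were not used. The number of value columns without a sample was 0.

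Groups and replicate numbers came from the labels. Genes with a mean of at least 1 FPKM were tested on log2(FPKM + 1) with limma 3.58.1 (R 4.3.3, trended prior variance, two-sided, Benjamini-Hochberg over 12391 genes, threshold 0.05). A fold change on this scale understates changes of low genes. The steps between low FPKM values of single-exon genes gave relative depth, and at least 99.08% of those values were whole fragments within 0.1. Fragment numbers are estimates from annotated lengths (GENCODE, GRCm38). Single genes also had an exact permutation test. The fit, the depth estimate and the permutation test were tested on simulated data. The 18 alternatives covered pseudocount, filter, scaling, length, block, weights, prior variance and left-out libraries, each with its own filter.

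The 8 genes, and the 18 lists beside them, were chosen with earlier results of these data known. Genes named were the 8, the tested genes of the pathway lists, up to 3 of largest absolute t from other lists, defining markers of cell types that moved with a member, and, for each gene tested, those with the highest correlation. A few genes that this rule would name are not reported here.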

Additional observations from a re-analysis of the deposited data

Results flagged for a closer look

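The summed FPKM of 8 hepatocyte markers had 1 TAC+EMPA library far from the other 3. Replicate 4 stood at 120 FPKM, against 44.9, 43.0 and 35.9 FPKM in replicates 1, 2 and 3, and its gap to the nearest of them was 0.893 of the whole range, more than the 95% limit of Dixon's test for 4 samples allows. Of 26 groups of 4 values examined, 1 was singled out in this way, where chance gives about 5% of groups. Agt, which hepatocytes produce, was at 2.07 FPKM in that library, the lowest of its group.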

How the results depend on the processing

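Under the 18 alternatives, the 7 genes tested kept their direction, except Agt, and no setting that kept all libraries with equal weights took any of them past the threshold. Leaving out 1 library at a time gave log2 differences of -0.0027 to 0.23 for Agt, -0.44 to -0.14 for Ace, 0.34 to 0.94 for Agtr1a, -0.31 to -0.065 for Edn1, 0.093 to 0.21 for Ece1, 0.45 to 0.73 for Ednra and -0.60 to -0.29 for Ednrb. The number of these genes past the threshold was 0 to 4 over these fits, with 4 when TAC replicate 3 was left out, and their median log2 difference was -0.0027 to 0.19. With correction for transcript length, Agt was at 0.12, Ace at -0.42, Agtr1a at 0.60 and Edn1 at -0.16. Under the same correction Ece1 was at 0.024, Ednra at 0.51 and Ednrb at -0.51. Only Ece1 lay outside its range over single omissions. With library weights, 4 genes passed: Ace at -0.38, Agtr1a at 0.89, Ednra at 0.72 and Ednrb at -0.48. Without TAC replicate 3 and TAC+EMPA replicate 4 together, the log2 differences of the same 4 genes were -0.36, 0.95, 0.77 and -0.51. Among the other genes named, Atp6ap2 changed sign with median centring (-0.0039) and without both libraries (-0.036), and over single omissions it ran from -0.00093 to 0.073. Hsd11b1 changed sign with quantile scaling (-0.026), library weights (-0.16) and without both libraries (-0.23), and ran from -0.19 to 0.16 over single omissions. The causes were not tested. Over all genes, 0 passed with equal weights and all libraries. Without TAC replicate 3, 3681 passed higher and 2932 lower (29.7% and 23.7%), and with library weights 3310 and 2551 (26.7% and 20.6%).

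Replicate numbers are shared between the groups, but same-numbered libraries correlated by only 0.10, 0.084 and -0.029 in their deviations from the group means, so the numbers were not taken as pairs. With the replicate number as a block, 0 of the 7 genes passed, and Ednra was at 0.64 (adjusted p = 0.194 by limma). Agt and Edn1 had the fewest estimated fragments of the genes tested among the 8, down to 68.8 and 55.2 in a library, and counting error was not separated from the spread between hearts. Because Myh6 was listed at 0 in 1 library, zeros may be failed estimates, and Agtr2 cannot be judged at any setting. The limma p-values set each group difference against the spread between libraries of a group, with a prior variance drawn from all genes tested. The permutation p-values place the observed difference among those of all divisions of the 7 libraries.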
